A study of Mus musculus with 6 samples.

Results

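T-box genes encode transcription factors that share one DNA-binding domain, the T-box, and the 10 examined here were Eomes, T (brachyury), Tbx1, Tbx2, Tbx4, Tbx5, Tbx6, Tbx15, Tbx18 and Tbx20. They were taken by symbol from the deposited expression table, in which all 10 had a row among 24028 genes. Tbx3 was left out of the 10 and appears below with the remaining T-box genes. RNA was sequenced from germinal vesicle stage oocytes of mice, when the egg cell has finished growing and is arrested before its meiotic divisions. The mutant oocytes, called dKO, were taken from females of genotype Ring1 -/-; Rnf2 f/f; Zp3-cre, that is with a recombinase driven by an oocyte promoter that removes the floxed Rnf2, and the control oocytes from Ring1 -/-; Rnf2 f/f females without it. Both groups therefore lacked Ring1 and shared a mixed FVB, 129/Sv and C57BL/6J background, and carrying the transgene and losing Rnf2 cannot be told apart. Each of the 3 dKO and 3 control libraries was made from 15 oocytes pooled from 1 mouse aged about 3 months, which makes each replicate an animal.

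Ring1 and Rnf2 are the ubiquitin ligases at the core of Polycomb repressive complex 1 (PRC1), which marks histone H2A and helps to keep developmental genes silent. T-box genes are textbook Polycomb targets in embryonic stem cells, where many of them lie in CpG-rich chromatin and are held off until a lineage is chosen. Later each is switched on in its own tissue, Eomes in trophoblast and early mesendoderm, T in mesoderm and notochord, Tbx6 in paraxial mesoderm, Tbx1 in the pharyngeal arches, Tbx15 and Tbx18 in skeletal and somitic tissue, Tbx20 in the heart, and Tbx2, Tbx4 and Tbx5 in limb, lung or heart. The family is named after T, whose mutation shortens the mouse tail.

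Promoter sequences of 3 of these genes are shown because the results turn on them: Eomes was nearly silent in control oocytes and had the largest rise of the 10, Tbx4 was abundant and fell, and Tbx18 was listed at 0 in control oocytes and ranged over 10-fold among dKO libraries. Each window runs 300 bases 5′ to 3′ on the gene's own strand, from 250 bases before to 50 bases after a RefSeq start site (GRCm38.p6, another build than the mm9 named for the expression values), with CpG dinucleotides in capitals.
Eomes, chr9:118477939-118478238, plus strand: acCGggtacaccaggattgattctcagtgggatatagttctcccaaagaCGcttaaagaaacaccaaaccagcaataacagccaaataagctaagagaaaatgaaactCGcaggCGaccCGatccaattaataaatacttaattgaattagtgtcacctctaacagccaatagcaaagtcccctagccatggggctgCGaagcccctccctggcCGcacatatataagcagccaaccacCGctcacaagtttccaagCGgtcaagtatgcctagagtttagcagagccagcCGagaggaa
Tbx4, chr11:85896515-85896814, plus strand: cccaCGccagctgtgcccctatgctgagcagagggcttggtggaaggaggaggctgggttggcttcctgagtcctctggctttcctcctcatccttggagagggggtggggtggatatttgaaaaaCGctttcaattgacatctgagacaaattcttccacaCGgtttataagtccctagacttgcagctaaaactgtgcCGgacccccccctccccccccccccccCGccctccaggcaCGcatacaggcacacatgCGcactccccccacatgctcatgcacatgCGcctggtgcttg
Tbx18, chr9:87731211-87731510, minus strand: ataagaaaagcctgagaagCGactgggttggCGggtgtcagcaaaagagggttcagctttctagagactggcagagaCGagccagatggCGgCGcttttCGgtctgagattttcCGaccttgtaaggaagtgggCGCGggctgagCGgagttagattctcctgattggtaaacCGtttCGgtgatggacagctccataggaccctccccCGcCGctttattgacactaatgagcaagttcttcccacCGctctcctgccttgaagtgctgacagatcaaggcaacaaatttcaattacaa
The windows held 10, 8 and 15 CpG dinucleotides for Eomes, Tbx4 and Tbx18, with observed over expected CpG ratios of 0.607, 0.314 and 0.755. The Tbx4 window is at the most downstream of its annotated starts: 2 of 3 GENCODE transcripts begin upstream of it, the farthest 10343 bases away, and the FPKM values do not tell which start was used.

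The values are FPKM, fragments scaled by transcript length and by the number of mapped fragments, so comparisons between genes and between libraries depend on that scaling. Summed over all genes they were 278701, 309549 and 278838 in dKO replicates 1 to 3. In control replicates 1 to 3 the sums were 318273, 318471 and 327480. Rnf2 stood at 14.8, 8.44 and 5.31 FPKM in dKO oocytes and at 53.7, 46.8 and 48.2 FPKM in control oocytes, which matches the labels, and Ring1 was at or below 0.240 FPKM in all 6 libraries. The oocyte label held, with 13 of 14 oocyte markers averaging 1 FPKM or more in control libraries (Sohlh1 was above that in dKO libraries only), and summed levels of 6672 to 7722 FPKM in dKO libraries and 8844 to 9327 FPKM in control libraries. Every dKO library was below every control library for 7 of these 14 and above for 2, with a median log2 change of -0.55. Over all genes above 0 in any library these shares were 12.5% and 22.3%, with a median of 0.029. Over the genes passing the filter used below they were 19.2% and 22.3%, with a median of -0.019. Summed markers of other ovarian cells were higher in the dKO libraries for granulosa and cumulus cells, at 65.9 to 68.4 FPKM in dKO and 27.0 to 33.9 FPKM in control libraries over 14 genes, and for theca and stroma, at 6.84 to 11.3 FPKM in dKO and 1.90 to 2.10 FPKM in control libraries over 14 genes. Of these, 5 granulosa markers, Foxl2 and Amhr2 among them, and 12 theca and stroma markers were under 1 FPKM in every library. Most of the difference between the granulosa sums lay in Ptgs2, Fshr and Nr5a2. They averaged 15.9, 10.6 and 25.5 FPKM in dKO and 0.597, 0.158 and 16.5 FPKM in control libraries. In the fit with no filter given below, 4 of 14 granulosa markers were called higher (Ptgs2, Fshr, Has2 and Nr5a2) and 0 lower. For theca and stroma 5 of 14 were called higher and 0 lower, where 9.88% and 2.68% of all genes were. Cyp19a1, the granulosa aromatase gene, was not past the threshold but averaged 5.78 ± 0.498 FPKM in dKO and 9.94 ± 2.04 FPKM in control libraries (SD, n = 3 each), with every dKO library below every control library. The part of these cells in the T-box results was not tested. Markers of surface epithelium (1.06 to 1.66 FPKM in dKO, 1.13 to 2.94 FPKM in control libraries), endothelium (20.1 to 27.6 FPKM in dKO, 24.6 to 33.6 FPKM in control libraries) and blood and immune cells (0.779 to 3.57 FPKM in dKO, 0.514 to 2.04 FPKM in control libraries) had overlapping sums, with Krt19, Emcn, Hbb-b1 and Hbb-b2 at 0. In bulk RNA a change in RNA per cell and in the number of cells of a type cannot be told apart. Depth relative to control replicate 1, read from the commonest ratio of low values, was 0.661, 0.805 and 1.08 in dKO replicates 1 to 3 and 0.903 and 1.02 in control replicates 2 and 3.

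Across the 10 genes the picture was of 1 abundant transcript that was lower in dKO oocytes and a set of transcripts nearly silent in control oocytes, of which 7 were higher in every dKO library. Tbx4 alone made up 72.9%, 88.9% and 88.2% of the summed FPKM of the 10 in dKO replicates 1 to 3 and 99.4% to 99.6% in control libraries. Without Tbx4 the other 9 summed to 12.8, 8.70 and 7.18 FPKM in dKO libraries and to 0.687, 0.535 and 0.467 FPKM in control libraries. The number of the 10 at 1 FPKM or more was 4, 3 and 3 in dKO libraries and 1 in each control library. At 0.1 FPKM or more it was 8, 7 and 8 in dKO libraries and 4, 3 and 2 in control libraries.

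**Figure D1:**
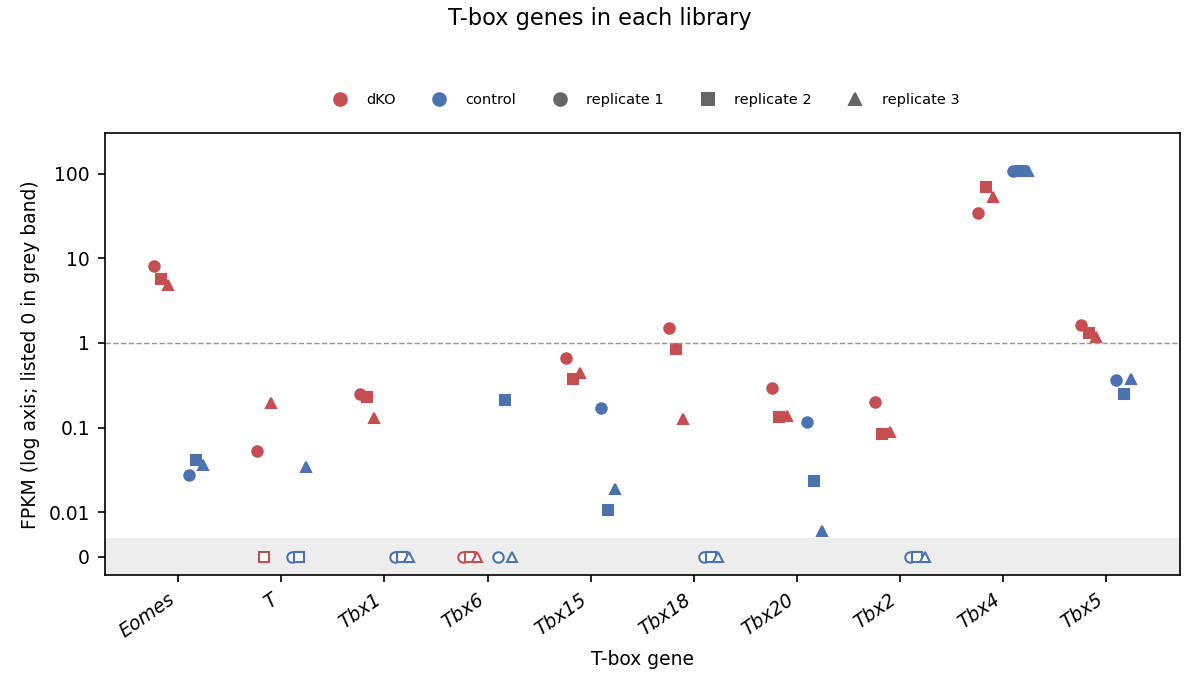
FPKM of the 10 T-box genes in each library, on a log axis with values listed as 0 in a grey band; red symbols are dKO and blue symbols control libraries, the symbol shape marks the replicate and the dashed line is 1 FPKM. Tbx4 sits near 100 FPKM in control oocytes and below that in all dKO libraries, and Eomes, Tbx1, Tbx2, Tbx5, Tbx15, Tbx18 and Tbx20 are above control in all dKO libraries.

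For the test, limma was fitted to log2(FPKM + 1) over 11334 genes that reached 1 FPKM in 3 or more of the 6 libraries (the filter), with Benjamini-Hochberg adjustment over all of them and a threshold of 0.05. Only Eomes, Tbx5 and Tbx4 passed that filter, Eomes and Tbx5 through their dKO values alone, so that their count is a description and the fit with no filter is the one given for them below. Eomes and Tbx5 were higher and Tbx4 lower, where 14.0% of the genes tested were called higher and 7.04% lower. That split, 1587 genes higher and 798 lower, was 1191 and 1073 after quantile normalization and 1452 and 1572 after mean-centring of the libraries, which moved the median log2 change of all genes to -0.12, against -0.02 as deposited. All 10 genes were also fitted with no filter, over the 20310 genes above 0 in any library. There 4 of the 10 were called higher (Eomes, Tbx5, Tbx15 and Tbx1) and 1 lower (Tbx4), against 9.88% and 2.68% of all genes, with a median log2 change of 0.22 over the 10 and 0.029 over all genes. The dKO libraries lay above every control library for 7 of the 10 genes and below for Tbx4, against 22.3% and 12.5% of the 20310 genes. The log2 scale with 1 FPKM added compresses changes of genes this low, so values per library come first.

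**Figure D2:**
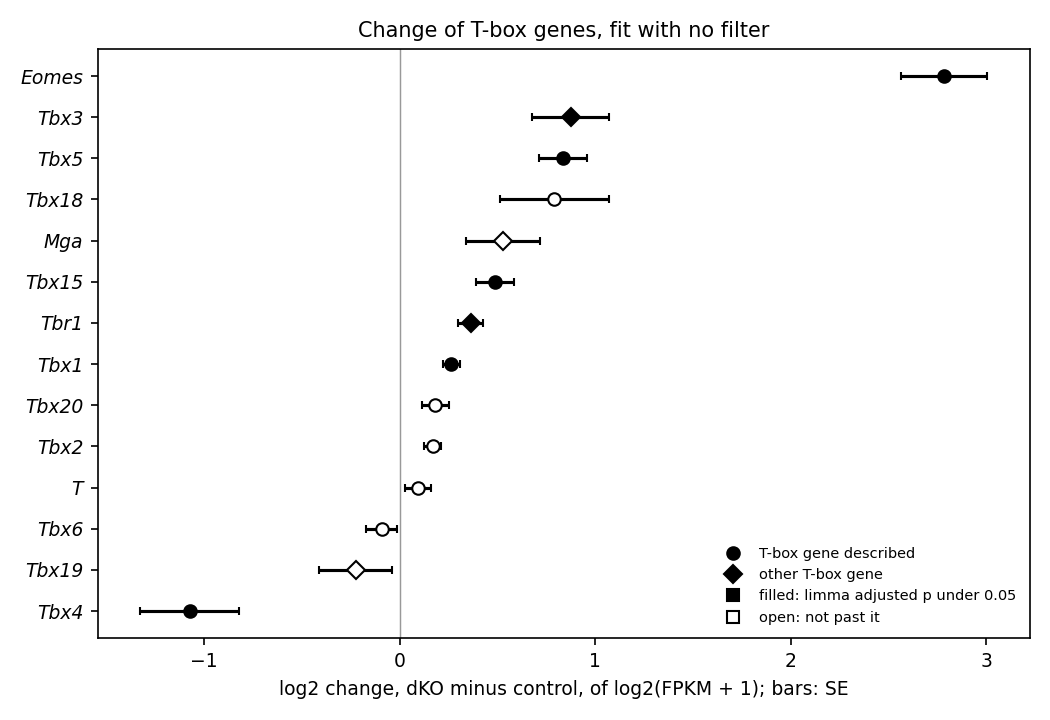
Log2 change (dKO minus control, on log2(FPKM + 1)) with its standard error for T-box genes in the limma fit with no filter; circles are the 10 genes described, diamonds other T-box genes, and filled symbols have an adjusted p under 0.05. Eomes at 2.78 and Tbx4 at -1.07 stand at the ends, and most of the others lie between 0 and 1.

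Eomes, or eomesodermin, is required for the trophoblast lineage and for mesoderm and definitive endoderm in the embryo. It stood at 8.18, 5.70 and 4.90 FPKM in dKO oocytes and at 0.0279, 0.0412 and 0.0365 FPKM in control oocytes. Every dKO library was more than 100 times the highest control library. The means were 6.26 ± 1.71 FPKM in dKO and 0.0352 ± 0.00674 FPKM in control oocytes (SD, n = 3 each), a ratio of 178, with a log2 change of 2.78 ± 0.22 (SE; adjusted p from limma with no filter 0.00221). Within the sequencing lanes that held a library of each group, the differences were 3.16, 2.69 and 2.51. Multiplied by relative depth, the control values of Eomes stood in the ratio 3 to 4 to 4 within 0.02 of whole numbers, as few whole fragments could give. On that scale the dKO values of replicates 1 to 3 were 580.54, 492.97 and 569.72, not all near whole numbers, so the number of fragments is not known. The control level and the ratio of 178 rest on values near the limit of detection, and possibly on very few fragments. By mean level Eomes was in place 6750 of 24028 genes in dKO oocytes and in place 16043 in control oocytes. Its exons overlap the opposite-strand gene Gm33460, whose values were not used here, and since the use of strand is not given the reads of such a pair cannot be told apart.

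Some other genes of the trophoblast were also higher. Of 10 genes on a trophoblast list, fitted with no filter, 3 were called higher (Ascl2, Gata2 and Tead4) and 0 lower, against 9.88% and 2.68% of all genes, with a median log2 change of 0.22. The other 7, Cdx2, Elf5, Tfap2c and Gata3 among them, were not called. Tead4 was only just past the threshold (limma adjusted p = 0.0487 with no filter), at means of 0.738 FPKM in dKO and 0.104 FPKM in control oocytes. Ascl2, a basic helix-loop-helix factor of the placenta, averaged 5.50 ± 0.368 FPKM in dKO oocytes, and its control libraries held 0.160, 0 and 0.0672 FPKM. Gata2, a zinc finger factor of trophoblast giant cells and blood, averaged 2.82 ± 0.868 FPKM in dKO and 0.0838 ± 0.0453 FPKM in control oocytes (SD, n = 3 each).

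T, or brachyury, drives mesoderm and notochord formation and was near the limit of detection. It stood at 0.0528, 0 and 0.193 FPKM in dKO oocytes and at 0, 0 and 0.0342 FPKM in control oocytes, so the groups overlapped. Scaled by depth, the values above 0 stood in the ratio 1 to 6 in dKO replicates 1 and 3 and 1 in control replicate 3, again within 0.02 of whole numbers. The log2 change of 0.094 ± 0.066 was not past the threshold (SE; no filter, limma adjusted p = 0.413) and turned to -0.015 with each library centred on its mean. Tbx6, which directs cells to paraxial mesoderm instead of a neural fate, was listed at 0 in all dKO libraries and at 0, 0.212 and 0 FPKM in control libraries. Tbx6 was not past the threshold either (no filter, limma adjusted p = 0.488). Values this low cannot tell a small difference in T or Tbx6 from none.

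Among 20 genes of the primitive streak and early mesoderm, where T, Tbx6 and Eomes act, 17 were above 0 in any library. With no filter 2 were called higher (Bmp4 and Dll1) and 0 lower, with a median log2 change of 0.018, close to the 0.029 of all genes, and a share called higher near the 9.88% of all genes. The call of Dll1, a Notch ligand gene, was lost without any 1 control library (adjusted p 0.0699 to 0.0749). Bmp4, a growth factor of posterior mesoderm, stood at 1.31, 2.08 and 2.49 FPKM in dKO oocytes and at 0.108, 0.00284 and 0.0705 FPKM in control oocytes (log2 change 1.46, limma adjusted p = 0.00642 with no filter). Fgf8, a growth factor of the streak and limb, averaged 7.53 ± 4.33 FPKM in dKO and 20.4 ± 3.28 FPKM in control oocytes (SD, n = 3 each) and was called lower with the filter (limma adjusted p = 0.0151) but not without it (adjusted p = 0.0578) nor without dKO replicate 1 (0.0514) or control replicate 2 (0.0627).

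Tbx1, Tbx15, Tbx18 and Tbx20 form one branch of the family. Tbx1, the pharyngeal arch and outflow tract gene whose loss underlies much of DiGeorge syndrome, stood at 0.246, 0.228 and 0.131 FPKM in dKO oocytes and was listed at 0 in all control oocytes. Its log2 change was 0.26 ± 0.042 (SE; no filter, limma adjusted p = 0.0154). The call was lost with the replicate block (adjusted p = 0.0547), with libraries centred on their mean (0.0971) and without any 1 control library (0.0746 to 0.0762). Scaled by depth, which gives relative fragment numbers and not levels, the dKO values stood as 8.01 to 9.02 to 7 in replicates 1 to 3. These lay within 0.02 of whole numbers but less closely than those of Tbx5 and Tbx15, so a ratio of whole fragments is uncertain here. In FPKM replicate 3 was the lowest.

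Tbx15, a skeletal gene that also shapes coat colour pattern, stood at 0.665, 0.380 and 0.441 FPKM in dKO oocytes and at 0.172, 0.0106 and 0.0188 FPKM in control oocytes. Control replicate 1 was the highest control by far, and the groups did not overlap. Scaled by depth the values stood as 46 to 32 to 50 in dKO replicates 1 to 3 and as 18 to 1 to 2 in control replicates 1 to 3, within 0.02 of whole numbers at values up to 50. The log2 change was 0.49 ± 0.096 (SE; no filter, limma adjusted p = 0.0288). The call was lost after quantile normalization (adjusted p = 0.116), with mean-centring (0.0549), without dKO replicate 1 (0.0547), without dKO replicate 3 (0.0535) and without control replicates 1, 2 or 3 (0.0609, 0.124 and 0.122).

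Tbx18, needed for somite polarity and the sinus node, varied most. It stood at 1.49, 0.848 and 0.126 FPKM in dKO oocytes and was listed at 0 in all control oocytes. The highest dKO library was thus over 10 times the lowest, and dKO replicate 3, which was also the deepest of the dKO libraries and the lowest in Rnf2, was the low one. The log2 change of 0.79 ± 0.28 was not past the threshold (SE; no filter, limma adjusted p = 0.130), and was past it without dKO replicate 3, at 1.10 (adjusted p = 0.0141), with a pseudocount of 0.1 (0.0493) and with array weights (0.0479). Its exons overlap the opposite-strand gene D030062O11Rik, with the same limit. Tbx20, a cardiac regulator, stood at 0.297, 0.135 and 0.139 FPKM in dKO oocytes and at 0.117, 0.0235 and 0.00607 FPKM in control oocytes. The groups did not overlap, but the gap between the nearest libraries was small, and the log2 change of 0.18 ± 0.069 was not past the threshold (SE; no filter, limma adjusted p = 0.155).

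Genes of the tissues in which this branch works included several that rose. Of 14 somite and sclerotome genes 13 were above 0 in any library, and with no filter 6 were called higher and 0 lower, against 9.88% and 2.68% of all genes, with a median log2 change of 0.43. Ripply3, of a family of repressors that bind T-box proteins, had the largest change, at 14.0, 11.9 and 5.15 FPKM in dKO oocytes and 0.0310, 0.121 and 0.524 FPKM in control oocytes (log2 change 3.13, limma adjusted p = 0.00701 with no filter). Of the same family, Ripply1 was listed at 0 in all libraries, and Ripply2 overlapped between groups (no filter, limma adjusted p = 0.188). Pax9 and Uncx, both sclerotome regulators, had log2 changes of 2.49 and 1.53 (no filter, limma adjusted p = 0.00245 and 0.00705). Of 19 heart genes 17 were above 0 in any library, and with no filter 8 were called higher and 0 lower (9.88% and 2.68% of all genes), with a median log2 change of 0.34. The 3 largest changes were in Bmp2, Gata4 and Hey2, at log2 changes of 2.75, 1.30 and 1.26 (no filter, limma adjusted p = 0.00220, 0.00255 and 0.0145). Eya1, a transcriptional coactivator gene of the pharyngeal arches, ear and kidney, was called lower with no filter, at 10.6 ± 0.267 FPKM in dKO and 15.6 ± 1.49 FPKM in control oocytes (SD, n = 3 each; log2 change -0.51, limma adjusted p = 0.0354 with no filter and 0.0549 with it).

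Tbx2, Tbx4 and Tbx5 belong to another branch, in which Tbx2 lies beside Tbx4 and Tbx3 beside Tbx5. Tbx4, known for hindlimb and lung mesenchyme, was the only abundant gene of the 10. It stood at 34.3, 69.7 and 53.7 FPKM in dKO oocytes and at 107, 106 and 108 FPKM in control oocytes. The control libraries were close together, and each dKO library was below all of them. The means were 52.6 ± 17.8 FPKM in dKO and 107 ± 1.15 FPKM in control oocytes (SD, n = 3 each), so the dKO mean was 48.9% of the control mean. On the log2 scale the change was -1.07 ± 0.24 (SE; adjusted p from limma 0.0126), and within the 3 lanes it ran from -1.62 to -0.60. The call was lost without control replicate 3 (adjusted p = 0.0525), and, with no filter, with the replicate block (0.0827, against 0.0472 without it), without dKO replicate 3 (0.0865) and without any 1 control library (0.155 to 0.160). In control oocytes Tbx4 was the 486th most abundant of 24028 genes, and in dKO oocytes the 1119th.

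To place the change of Tbx4 among transcripts of like abundance, it was set beside genes of its own level. Of 762 genes whose mean over the 6 libraries lay within 1.5 times that of Tbx4, 82 fell (10.8%) and 23 rose (3.02%), with a median log2 change of -0.19. Over all genes tested with the filter 7.04% fell and 14.0% rose, with a median of -0.019, so genes of this level were lower more often. Of the 762, 17 had a larger drop than Tbx4. With the filter Tbx4 kept its call after quantile normalization (log2 change -0.93, limma adjusted p = 0.0221; lost with no filter, 0.0598) and with libraries centred on their mean (-1.18, adjusted p = 0.00525).

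**Figure D3:**
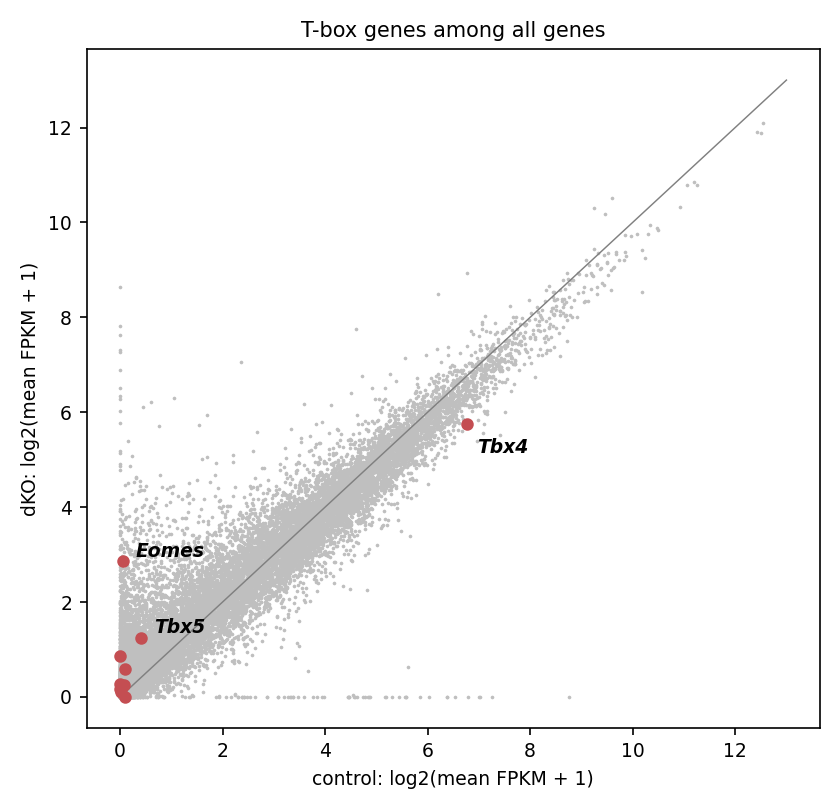
Mean FPKM of all genes in dKO oocytes (vertical) against control oocytes (horizontal), both as log2(mean FPKM + 1); grey points are genes, red points the 10 T-box genes, and the line marks equal means. Tbx4 lies below the line at high level, Eomes and Tbx5 above it near the left edge, and the remaining 7 lie near the lower left corner.

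Tbx5, the forelimb and heart gene of Holt-Oram syndrome, stood at 1.63, 1.33 and 1.17 FPKM in dKO oocytes and at 0.370, 0.248 and 0.371 FPKM in control oocytes. All dKO libraries lay above all control libraries. The means were 1.37 ± 0.233 FPKM in dKO and 0.330 ± 0.0710 FPKM in control oocytes (SD, n = 3 each), a ratio of 4.17, with a log2 change of 0.83 ± 0.12 (SE; adjusted p from limma with no filter 0.0121). Scaled by depth the values stood as 125 to 124 to 147 in dKO replicates 1 to 3 and 43 to 26 to 44 in control replicates 1 to 3, within 0.02 of whole numbers. The call was lost after quantile normalization, where the change was 0.47 (adjusted p = 0.0646; 0.28 and 0.301 with the filter), with the replicate block (0.0549) and without any 1 control library (0.0638 to 0.0770). Tbx2, a repressor that acts in heart chamber patterning, stood at 0.203, 0.0833 and 0.0884 FPKM in dKO oocytes and was listed at 0 in all control oocytes. Its log2 change of 0.17 ± 0.045 was not past the threshold (SE; no filter, limma adjusted p = 0.0662), and was past it without dKO replicate 1 (0.0125), with a pseudocount of 0.1 (0.0251) and with array weights (0.0433).

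Limb genes, the setting of Tbx4 and Tbx5, included several that rose. Of 15 such genes, all above 0 in some library, 6 were called higher and 0 lower with no filter. Their median log2 change was 1.0, against 0.029 over all genes, of which 9.88% were called higher and 2.68% lower. Prrx1, a limb mesenchyme homeobox gene, stood at 9.97, 6.90 and 6.50 FPKM in dKO oocytes and at 0.213, 0.0568 and 0.0303 FPKM in control oocytes (log2 change 2.98, limma adjusted p = 0.00211 with no filter). Tfap2a, a factor of ectoderm and neural crest, had a log2 change of 2.94 and Msx2, a limb bud homeobox gene, one of 2.87 (no filter, limma adjusted p = 0.00231 and 0.00367).

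The genes around Tbx2 and Tbx4 were not called. Upstream of Tbx2 on chromosome 11 lie Ppm1d, a phosphatase gene, and Bcas3, and downstream of Tbx4 lie Brip1, a DNA helicase gene, and Ints2, an Integrator subunit gene. None of Ppm1d, Bcas3, Brip1 and Ints2 was past the threshold with the filter and all libraries. Bcas3 had a log2 change of -0.57 ± 0.20 and Brip1 of -0.40 ± 0.17 (SE; limma adjusted p = 0.0764 and 0.132), both with every dKO library below every control library. Bcas3 was past the threshold after quantile normalization (adjusted p = 0.0384), with libraries centred on their mean (0.0320) and without dKO replicate 2 (0.0495), and Brip1 with libraries centred on their mean (0.0455). Ppm1d and Ints2 overlapped between groups (log2 changes 0.30 and -0.034, limma adjusted p = 0.335 and 0.939), and the sign of Ints2 turned without dKO replicate 3 or control replicates 1 or 2. Tbx2, directly beside Tbx4, was at or under 0.203 FPKM in every library. The neighbouring pair thus differed in level in control oocytes, with Tbx4 near 107 FPKM and Tbx2 listed at 0.

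Around Tbx5 on chromosome 5, Tbx3 and Lhx5 were higher and Rbm19 lower. Tbx3, which acts in limb, heart and pluripotent cells, averaged 4.36 ± 0.552 FPKM in dKO and 1.93 ± 0.392 FPKM in control oocytes (SD, n = 3 each; log2 change 0.87, limma adjusted p = 0.0157), and lost its call without control replicates 1 or 3 (adjusted p = 0.0710 and 0.0809) and after quantile normalization (0.0781). Lhx5, a forebrain homeobox gene, stood at 1.02, 1.45 and 0.986 FPKM in dKO oocytes and at 0.510, 0.239 and 0.423 FPKM in control oocytes (no filter, limma adjusted p = 0.0397, and 0.0542 to 0.157 with 1 library left out, other than dKO replicate 3, at 0.0477; 0.261 after quantile normalization and 0.117 with the replicate block). Between Tbx5 and Lhx5, Rbm19, which acts in ribosome assembly, moved the other way, at 1.10, 1.71 and 2.26 FPKM in dKO oocytes and 3.67, 4.51 and 4.16 FPKM in control oocytes (log2 change -0.95, limma adjusted p = 0.0162, and 0.0749 and 0.0627 without control replicates 2 and 3). Over all 10 genes the 2 nearest protein-coding genes on each side gave 34 genes with a row that were not among the 10, of which 4 were called higher (Tbx3, Lhx5, Ypel3 and Nt5e) and 1 lower (Rbm19) of 32 tested with no filter, near the 9.88% and 2.68% of all genes, and their median log2 change was 0.014. Nt5e, an ectonucleotidase gene beside Tbx18, stood at 0.490, 0.899 and 1.19 FPKM in dKO oocytes and at 0.0476, 0.0211 and 0.0374 FPKM in control oocytes (no filter, limma adjusted p = 0.0194, and 0.0547 with the replicate block). Ypel3, beside Tbx6, averaged 14.5 ± 1.54 FPKM in dKO and 8.59 ± 0.199 FPKM in control oocytes (SD, n = 3 each; log2 change 0.69, limma adjusted p = 0.0197). Without any 1 control library the adjusted p was 0.0784 to 0.0967 for Ypel3 and 0.0904 to 0.0934 for Nt5e.

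**Figure D4:**
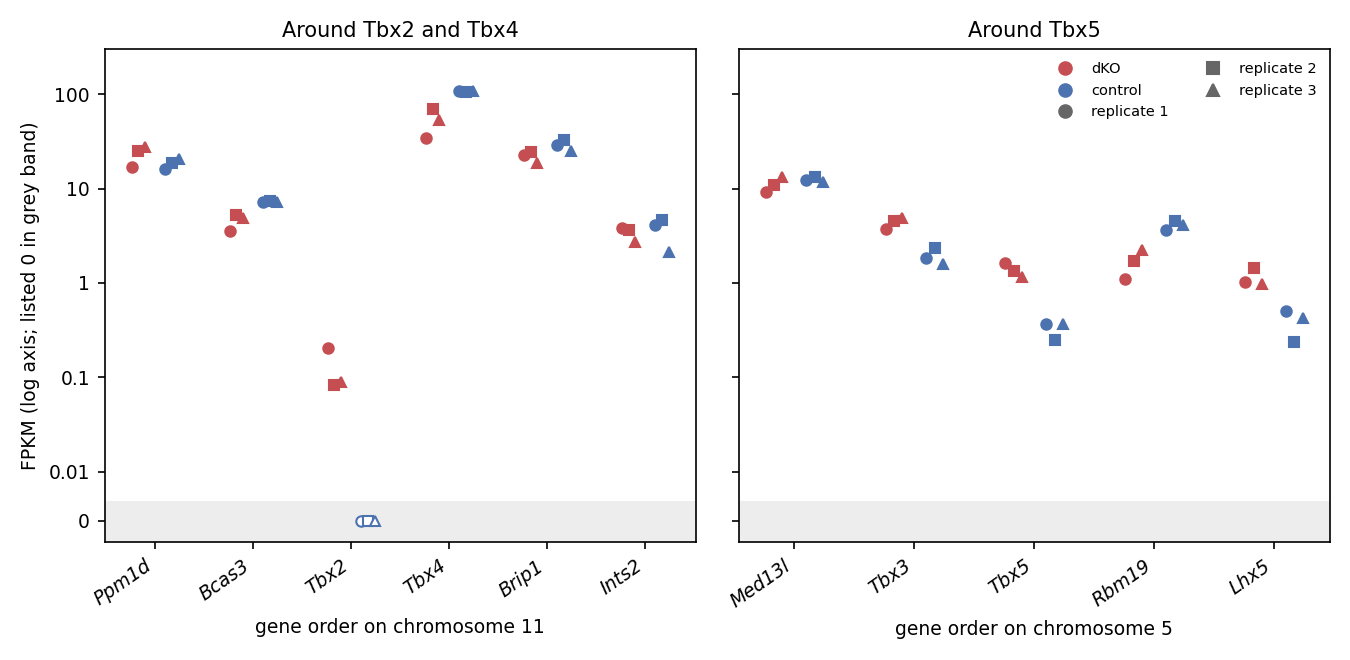
FPKM per library (log axis, values listed as 0 in the grey band) of genes in chromosomal order around Tbx2 and Tbx4 (left) and around Tbx5 (right); red symbols are dKO, blue symbols control libraries. Tbx4 and Rbm19 are lower in dKO oocytes, Tbx3, Tbx5 and Lhx5 higher, and Tbx2 is listed at 0 in control oocytes only. Bcas3 and Brip1 are also lower in every dKO library, though not past the threshold with the filter and all libraries.

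Among the 7 remaining T-box genes, Tbx10, Tbx21 and Tbx22 were listed at 0 in all 6 libraries. Of the 4 tested with no filter, Tbx3 and Tbr1 were called higher and 0 lower, against 9.88% and 2.68% of all genes. Tbr1, a cortical neuron gene and the closest relative of Eomes with Tbx21, stood at 0.245, 0.445 and 0.275 FPKM in dKO oocytes and at 0.0426, 0 and 0.0334 FPKM in control oocytes (no filter, limma adjusted p = 0.0199), and lost its call with the replicate block (0.0685) and without any 1 control library (0.0830 to 0.0949). Mga, which encodes a T-box subunit of a variant PRC1, averaged 17.9 ± 4.16 FPKM in dKO and 12.0 ± 1.57 FPKM in control oocytes (SD, n = 3 each), with no overlap but an adjusted p of 0.101 (limma), which was 0.0464 without dKO replicate 2. Tbx19, the pituitary factor, averaged 12.4 ± 2.98 FPKM in dKO and 14.4 ± 0.619 FPKM in control oocytes (SD, n = 3 each; log2 change -0.23 ± 0.21, limma adjusted p = 0.467).

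Of 10 genes for T-box partners, co-repressors and chromatin factors among them, 1 was called higher and 0 lower with no filter (9.88% and 2.68% of all genes). This was Tle3, a Groucho co-repressor gene, at 6.61, 7.22 and 6.57 FPKM in dKO oocytes and 0.0650, 0.00719 and 0.0127 FPKM in control oocytes (log2 change 2.92, limma adjusted p = 0.00140 with no filter). With the filter Kdm6b, a histone H3K27 demethylase gene, was called lower (log2 change -0.63, adjusted p = 0.0478), and lost that call with any library but dKO replicate 3 left out (up to 0.201), after median-ratio scaling (0.0512) and with no filter (0.0859).

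The dKO libraries also differed among themselves. In each of the 7 genes with dKO above control, Eomes, Tbx1, Tbx2, Tbx5, Tbx15, Tbx18 and Tbx20, dKO replicate 1 held the highest FPKM, and it also held the lowest Tbx4. Over all genes with dKO above control, replicate 1 was the highest in 41.8% and over all with dKO below it was the lowest in 51.8%. Replicate 1 had the lowest relative depth of the 6 libraries, 0.661, and the most remaining Rnf2 of the dKO libraries, and the part of either in this order was not tested. Scaled by depth, Eomes, Tbx2, Tbx18 and Tbx20 were still highest in replicate 1. Tbx5 and Tbx15 were then highest in replicate 3 and Tbx1 in replicate 2. These scaled values are relative fragment numbers, not levels.

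RefSeq promoter windows were at hand for 7 of the 10 genes, 8 windows in all with 2 for Tbx1. They held 7 to 26 CpG dinucleotides, from Tbx6 at 7 to Tbx1 and Tbx20 at 26, against a median of 7 over 32851 windows. Among genes tested with the filter the median was 18 in windows of genes that rose, 17 in those that fell and 21 in those not called. Eomes, which rose, and Tbx4, which fell, held 10 and 8. The T-box core motif GGTGTGA, searched on both strands, was in none of the 8 windows and in 3.98% of all windows. TATAAA, searched on both strands, was in the Tbx4 and Tbx6 windows and in 13.6% of all windows.

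**Figure D5:**
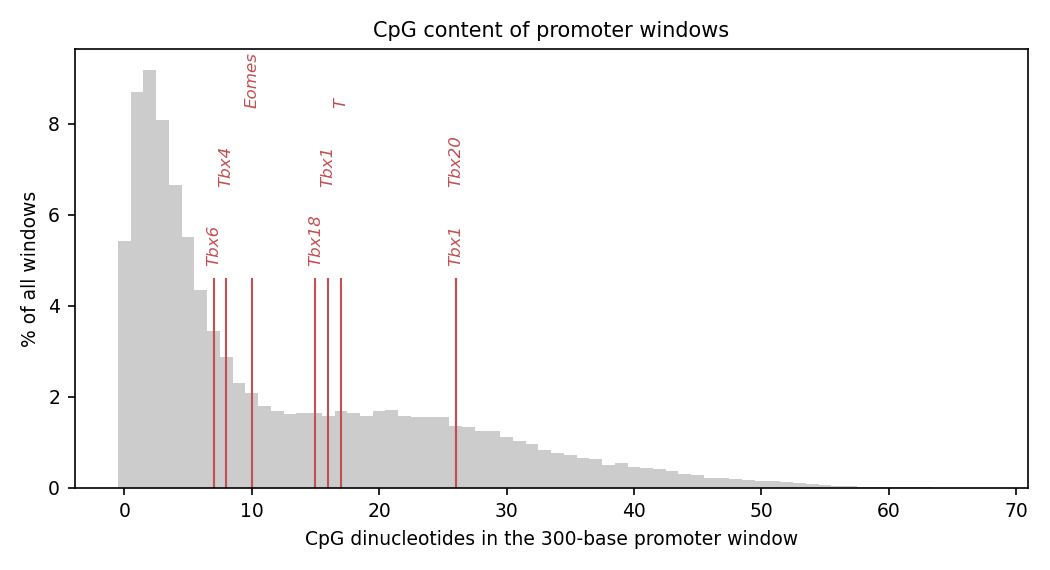
Number of CpG dinucleotides in 300-base RefSeq promoter windows: grey bars give the percentage of all windows and red lines mark the 8 windows of 7 T-box genes, at heights with no meaning. The lines run from Tbx6 at 7 to Tbx1 and Tbx20 at 26.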

How the data were processed

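RNA of germinal vesicle oocytes was measured in 3 dKO and 3 control libraries. Per the labels' protocols, granulosa cells were removed by pipetting, RNA of 15 oocytes per female was amplified with the Ovation v2 kit, and libraries were sequenced on a HiSeq. The deposited values are FPKM per gene and library. TopHat2 2.0.11, Cufflinks 2.0.2 and build mm9 are named in the submitters' processing notes; what each did, which gene models were used, and whether strand or a scaling across libraries entered, is not given in the sources used here.

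Of 24525 rows, 497 repeated a symbol with all its values and were removed. limma 3.58.1 in R 4.3.3 (lmFit, eBayes with trend, two-sided, tested on simulated data) was fitted to log2(FPKM + 1) over all genes kept, and only the T-box genes, their neighbours (order from RefSeq GRCm38.p6, which matched 38 of 40 places) and listed genes are reported. Named are all 10 genes, T-box genes outside the 10, neighbours past the threshold with all those of Tbx2 and Tbx4, and up to 3 genes per list and direction. Some list genes that were not called are named beside them. The counts of a list of pharyngeal genes and 1 gene on it are not reported here. The 10 genes and all lists were chosen with earlier results of these data known. Relative depth came from values under 0.2 FPKM, absolute depth is unknown, and no counting interval is given. Values multiplied by relative depth were compared with whole-number ratios within 0.02. No such ratio was found for Tbx4, Tbx18 and Tbx20, and none could be sought for Tbx6, above 0 in 1 library only.

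Replicate numbers follow the sequencing lane named in the labels, which pairs the libraries; their deviations from group means correlated at 0.147, 0.107 and 0.0637. The main fit was unpaired, with the replicate block as an alternative. The index sequence was the same within each group and differed between groups, and its effect cannot be told apart from that of genotype. Alternatives were pseudocounts, filters, scalings, weights, the block and leaving out each library; mean-centring and the alternatives of the fit with no filter were added after seeing the data.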

Additional observations from a re-analysis of the deposited data

How the results depend on the processing

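With the filter, 2 of the 10 genes were called higher and 1 lower. The 2 passed the filter through their dKO values alone, so that the count is a description. Eomes and Tbx5 were the 2 under pseudocounts of 0.1 and 0.5, median-ratio scaling, array weights, the replicate block and mean-centring; quantile normalization left 1 (Eomes), the filter at 5 FPKM left 0, since neither passed it, and no filter gave 4. Leaving out a library kept 2 higher and gave 0 to 1 lower, the 0 without control replicate 3. With no filter, 4 were called higher and 1 lower; this became 2 and 0 after quantile normalization, 2 and 0 with the replicate block, in the paired fit, and 2 higher after mean-centring. Pseudocount 0.1 and array weights each gave 6 higher. Leaving out a library gave 1 to 4 higher and 0 to 1 lower, with Eomes alone left higher without any 1 control library and 0 lower without any control or dKO replicate 3. Eomes kept its call under all alternatives of the fit with no filter (log2 change 2.60 to 5.52, limma adjusted p 0.000557 to 0.0310, the highest with the replicate block). It also kept its call under the alternatives with the filter that tested it, as a description only. Among genes not past the threshold, T turned to -0.015 with mean-centring, and Ints2 ranged from -0.29 to 0.14 on leaving out a library. The replicate block changed no other call of the 10 genes than those given. Relative depths of 0.661 to 1.08 limit genes under 1 FPKM, such as T and Tbx6, and index and genotype coincide. Groups of 3 libraries allow no exact permutation p under 0.1.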
